A study of Mus musculus with 4 samples.

Results

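The Tcf7+Slamf6+ CD4+ T cells are the donor CD4+ T cells of the spleen in which RNA of both Tcf7 and Slamf6 was detected and RNA of Foxp3, Mki67 and Top2a was not. Of 11632 cells that passed the cell filters (at least 500 genes, at least 1000 gene UMIs, at most 10% mitochondrial UMIs, where a UMI counts 1 captured RNA molecule), 1759 were CD4+ T cells, with at least 1 UMI of Cd3d, Cd3e or Cd3g, at least 1 of Cd4 and none of Cd8a, Cd8b1 or Klf1. Among them 294 were Tcf7+Slamf6+ cells, which is 16.7% of the CD4+ T cells and 2.53% of all cells kept. The choice rests on measured RNA, so the levels of Tcf7 and Slamf6 against those of other cells are a description and were not tested.

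The libraries came from mice that were lethally irradiated, given donor bone marrow and 10000 WEHI-3B cells (a BALB/c acute myeloid leukemia, AML, line), and then given 200000 donor T cells on a C57BL/6 background (H-2Kb) against BALB/c recipients. T cells were isolated from the spleen on day 23 with a pan-T cell kit per the labels, stained with an oligonucleotide-tagged H-2Kb antibody and sequenced from the 3′ end of each RNA. The study's text speaks in addition of a flow-cytometric sort of donor T cells, and the sources used here do not settle whether a sort preceded the loading of the cells. Both groups carried floxed alleles of Havcr2, the gene of the inhibitory receptor TIM-3. The 2 Havcr2fl/fl;E8icre/+ mice received marrow and T cells that in addition carried a Cre driven by the E8i element of the Cd8a locus, which is active in CD8+ T cells, and the 2 Havcr2fl/fl mice received both without Cre. The CD4+ cells described here therefore held floxed Havcr2 that the Cre was not aimed at, and any genotype difference in them concerns CD4+ cells that shared a mouse with targeted CD8+ cells. Per the study's methods the mice were young adults.

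TCF-1, the product of Tcf7, is a DNA-binding partner of β-catenin that keeps T cells in a state able to self-renew, and Ly108, the product of Slamf6, is a surface receptor of the SLAM family that is used to sort such cells. In chronic infection and in tumors, T cells with both molecules survive long term and give rise to effector progeny that lose them and gain TIM-3, chemokines and cytolytic molecules. Among CD4+ cells the same pair also marks cells of the T follicular helper lineage, which help B cells.

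Values for the 4 libraries are given below in the fixed order Havcr2fl/fl;E8icre/+ replicate 1, Havcr2fl/fl;E8icre/+ replicate 2, Havcr2fl/fl replicate 1 and Havcr2fl/fl replicate 2. The libraries held 71, 135, 48 and 40 Tcf7+Slamf6+ CD4+ T cells among 574, 629, 245 and 311 CD4+ T cells. Their median depth was 4324, 5487, 5003.5 and 2417 UMIs a cell, against 3580, 5041, 5284 and 2567 in the other CD4+ T cells without Foxp3, Mki67 or Top2a UMIs. The summed depth was 318763, 763434, 261921 and 109969 UMIs, so the last library, the shallowest, resolved low genes least. The median share of mitochondrial UMIs, a sign of RNA quality, was 4.28%, 4.09%, 2.48% and 4.66% in the Tcf7+Slamf6+ cells and lower in every library of the other CD4+ T cells, at 3.36%, 2.93%, 1.91% and 3.27%, and its part in the results was not tested. Levels are in CPM, the UMIs of a gene per 1000000 UMIs summed over the cells of 1 class in 1 library, and fold changes are edgeR estimates from those sums with the library as a block.

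Before the results, the labels were checked with Havcr2 in the CD8+ T cells, where the Cre acts. Its level there was 60.5, 7.92, 52.5 and 114 CPM. The library labelled Havcr2fl/fl;E8icre/+ replicate 1 was thus not lower than Havcr2fl/fl replicate 1, and 1 library went against its label by this measure. The sources used here do not say which exons are floxed, and a 3′ tag outside the deleted part checks nothing. The libraries shared 17 cell barcodes among 15784, and none of the 294 cells was called a doublet by Scrublet or had a low H-2Kb tag. Scrublet called 2, 5, 9 and 109 cells in the libraries, and a second filter, which took away the highest doublet scores of each library at an assumed rate, removed 3, 1, 0 and 0 of the 294 cells.

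Genes of the T cell receptor complex were present in the Tcf7+Slamf6+ CD4+ T cells of every library. Trac, the constant region of the receptor's α chain, was at 540, 751, 832 and 655 CPM, and Trbc2, a constant region of the β chain, at 1754, 1863, 1672 and 1964 CPM. Tcf7 (ENSMUSG00000000782), which the rule used, was at 599, 606, 489 and 673 CPM, against 62.0, 58.3, 33.7 and 112 CPM in the other CD4+ T cells without Foxp3, Mki67 or Top2a UMIs. Slamf6 (ENSMUSG00000015314), also used by the rule, was at 944, 768, 657 and 737 CPM against 168, 156, 140 and 144 CPM. Many cells were chosen on a single molecule. The share of Tcf7+Slamf6+ cells with exactly 1 Tcf7 UMI was 36.6%, 27.4%, 33.3% and 42.5%, and the share with exactly 1 Slamf6 UMI was 15.5%, 14.1%, 27.1% and 50%.

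Cd200, Btla and Tnfsf8, the other markers given for the population, were chosen with earlier results of these data known, so their values are a description and no independent support. Cd200, the gene of a surface ligand that restrains myeloid cells, was at 169, 182, 179 and 109 CPM in Tcf7+Slamf6+ CD4+ T cells and at 84.0, 95, 77.4 and 56.0 CPM in the other CD4+ T cells without Foxp3, Mki67 or Top2a UMIs. The lowest library of the first was above the highest of the second. The difference was 2.11-fold (log2 fold change 1.08, SE 0.14, adjusted p = 3.54e-06, edgeR quasi-likelihood test with Benjamini-Hochberg adjustment). Btla, which encodes an inhibitory receptor of B and T cells, was at 151, 93.0, 76.4 and 90.9 CPM against 58.0, 52.5, 40.4 and 48.0 CPM, again without overlap (2.13-fold, log2 1.09, SE 0.18, adjusted p = 9.69e-05). Tnfsf8, the gene of the CD30 ligand, was at 389, 588, 332 and 382 CPM against 270, 428, 259 and 296 CPM. Those ranges overlapped between libraries, although within each library the Tcf7+Slamf6+ cells were higher (1.41-fold, log2 0.50, SE 0.10, adjusted p = 0.00135, and 0.314 without the library block). With every cell thinned to 2000 UMIs and the cells chosen again on those UMIs, which left 39, 77, 19 and 16 Tcf7+Slamf6+ cells, Cd200 (log2 0.68, adjusted p = 0.365) and Btla (log2 0.76, adjusted p = 0.359) were no longer called. Values given below as thinned come from that fit. When the cells were chosen on one random part of their UMIs and measured on the rest, Btla fell to a log2 difference of 0.27 (adjusted p = 0.84).

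In cells chosen on all of their UMIs and then thinned to an equal depth of 2000 UMIs, Cd200 was detected in 21.7% ± 3.24 of Tcf7+Slamf6+ CD4+ T cells (mean ± SD over 4 libraries) against 10.7% ± 3.48 of the other CD4+ T cells without Foxp3, Mki67 or Top2a UMIs, and in 36.1% against 19.6% without thinning. Tnfsf8 was detected in 51.6% ± 5.62 against 36.0% ± 6.91, and in 63.8% against 50.6% without thinning. Btla was detected in 18.7% ± 2.79 against 8.56% ± 1.82, and in 31.3% against 14.7% without thinning. In cells without any Cd3 UMI, the thinned shares were 0.204% for Cd200, 0.0791% for Tnfsf8 and 0.773% for Btla, far under both CD4+ populations. These shares can hold the cells' own RNA as well as free RNA. This thinning used 280 of the 294 Tcf7+Slamf6+ cells and left out 14 shallower ones.

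**Figure D1:**
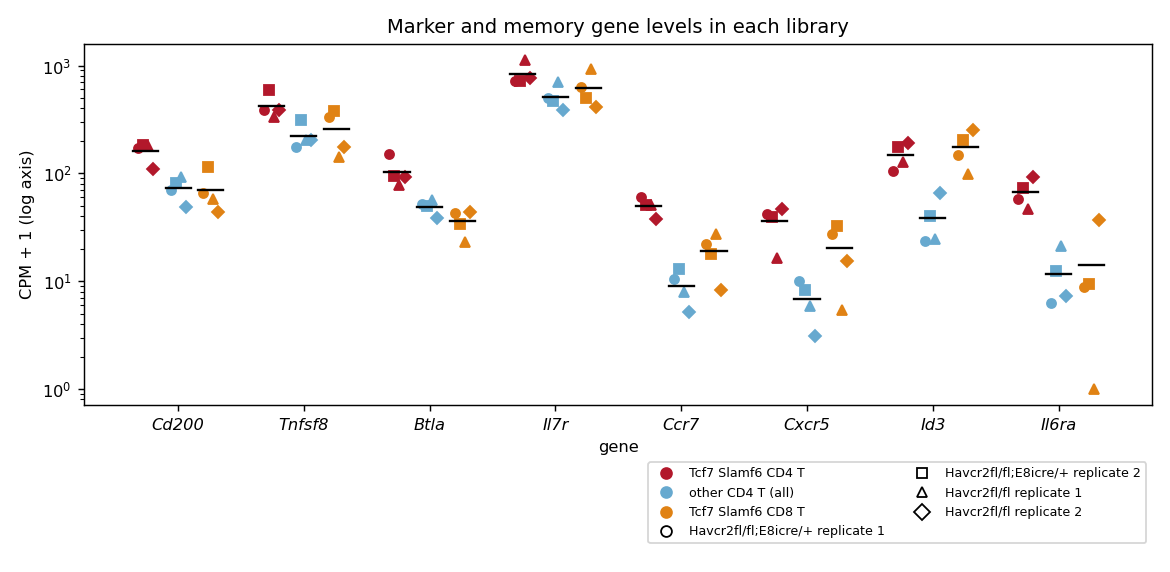
CPM + 1 (log axis) of 8 genes in Tcf7+Slamf6+ CD4+ T cells, all other CD4+ T cells and Tcf7+Slamf6+ CD8+ T cells, with 1 point per library, shapes for libraries and a black bar for the mean of the 4 libraries. Cd200, Btla, Ccr7, Cxcr5 and Il6ra have their highest mean in the Tcf7+Slamf6+ CD4+ T cells, while the libraries of Id3 overlap with those of the CD8+ cells. The difference of Cxcr5 from the CD8+ cells was not called by edgeR (log2 0.54, adjusted p = 0.568).

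Across all genes, 246 of 6783 (3.63%) were higher and 242 (3.57%) lower in Tcf7+Slamf6+ CD4+ T cells than in the other CD4+ T cells without Foxp3, Mki67 or Top2a UMIs, at an adjusted p under 0.05. Against all other CD4+ T cells, 381 of 8367 genes (4.55%) were higher and 541 (6.47%) lower. The 488 calls of the first comparison numbered 313 without Havcr2fl/fl;E8icre/+ replicate 2 and 236 by DESeq2, and the 922 of the second 592 and 531. In that second comparison 25 of 25 cell cycle genes were lower, which the rule fixes by leaving out cells with Mki67 or Top2a, and 7 of 13 regulatory T cell genes were lower and 2 higher, to which the rule contributes by leaving out cells with Foxp3. The values below are from the first comparison unless stated.

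Of 14 transcription factors of stem-like and memory T cells tested, 7 were higher, 1 was lower and 6 were not called, with a median log2 fold change of 0.53 against 0.01 over all genes. Id3, an inhibitor of E proteins that is kept in memory precursors, was at 104, 173, 126 and 191 CPM against 22.0, 28.3, 15.2 and 90.7 CPM. No library overlapped, and the difference was 4.91-fold (log2 2.30, SE 0.22, adjusted p = 7.96e-09). Klf3, a zinc finger repressor, was at 232, 114, 141 and 173 CPM against 56.0, 41.7, 72.4 and 53.4 CPM (3.08-fold, log2 1.62, SE 0.18, adjusted p = 8.93e-08). Lef1, the partner and relative of TCF-1, was at 182, 168, 191 and 127 CPM against 77.0, 80, 121 and 80.1 CPM (log2 1.03, SE 0.15, adjusted p = 1.18e-05, and thinned 0.85 with adjusted p = 0.0712). All 4 libraries were higher in the Tcf7+Slamf6+ cells for Lef1 and for Satb1, a chromatin organizer, at 333, 224, 237 and 182 CPM against 171, 156, 141 and 149 CPM (log2 0.74, adjusted p = 9.73e-05, and thinned 0.63 with adjusted p = 0.158). The gene that went the other way was Eomes, a T-box factor of cytotoxic and memory cells, at 18.8, 26.2, 7.64 and 0 CPM against 73.0, 52.5, 48.8 and 21.3 CPM (log2 -1.48, SE 0.30, adjusted p = 0.00108, -2.20 without Havcr2fl/fl;E8icre/+ replicate 2, and adjusted p = 0.0679 without the library block). Tox, a factor of chronically stimulated T cells, was at 282, 664, 523 and 300 CPM against 370, 616, 492 and 275 CPM and was not called (log2 0.04, adjusted p = 0.919).

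Tox2, a relative of Tox that is high in T follicular helper cells, was at 40.8, 64.2, 72.5 and 63.7 CPM against 14.0, 20, 13.5 and 18.7 CPM. Every library was higher in the Tcf7+Slamf6+ cells, and the groups did not overlap (3.64-fold, log2 1.86, SE 0.27, adjusted p = 1.2e-05, and thinned 1.58 with adjusted p = 0.0795). Because TCF-1 and LEF-1 bind a short shared core, the 250 bases before each gene's start were searched on both strands for CTTTGAT and CTTTGAA in the 10 genes with the largest rise and the 10 with the largest fall. RefSeq promoter entries (GRCm38.p6) were present for 6 of the first and 6 of the second, and a match stood in 2 of 13 entries of the first and 0 of 7 of the second, beside 2457 of all 32851 entries (7.48%). Both were entries of Tox2 that overlap in all but 1 base and hold the same match, and the other 3 of the 5 Tox2 entries, which lie upstream, held none. The first of the pair is on the plus strand, chr2:163225203-163225452, shown here 5′ to 3′ with the matched letters (the reverse complement of CTTTGAT) in capitals.
Tox2 upstream window: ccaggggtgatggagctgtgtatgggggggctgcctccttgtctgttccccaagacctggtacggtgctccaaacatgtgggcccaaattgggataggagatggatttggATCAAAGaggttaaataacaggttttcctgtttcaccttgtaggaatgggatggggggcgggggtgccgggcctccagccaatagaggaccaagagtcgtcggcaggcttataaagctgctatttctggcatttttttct
The match begins 140 bases before the start. A match is a description of these letters and not a binding site.

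Of 14 receptor and survival genes of memory and lymphoid homing tested, 9 were higher and 0 lower by edgeR, and 5 were not called (median log2 fold change 0.41). Il6ra, which encodes the receptor that binds interleukin-6, was at 56.5, 72.0, 45.8 and 90.9 CPM against 4, 9.17, 11.8 and 13.3 CPM. The lowest library was above the highest of the comparison group (7.61-fold, log2 2.93, SE 0.32, adjusted p = 8.93e-08). Ccr7, the chemokine receptor that brings T cells into lymphoid tissue, was at 59.6, 49.8, 49.6 and 36.4 CPM against 11.0, 15.0, 0 and 2.67 CPM (5.69-fold, log2 2.51, SE 0.38, adjusted p = 2.76e-05, thinned 2.24 with adjusted p = 0.0724, and 3.23 without Havcr2fl/fl;E8icre/+ replicate 2). Il7r, the receptor for the survival cytokine interleukin-7, rose less, from 658, 484, 791 and 552 CPM to 718, 716, 1115 and 773 CPM (log2 0.47, SE 0.09, adjusted p = 0.000913, not called without the library block, with at least 2 UMIs of both genes required, or on separate parts of the UMIs). S1pr1, which lets lymphocytes leave tissue, was at 163, 147, 225 and 145 CPM against 101, 65.0, 189 and 82.7 CPM (log2 0.79, adjusted p = 0.000681), and was called under 12 of 16 alternatives, with 0.56 (adjusted p = 0.0522) without Havcr2fl/fl;E8icre/+ replicate 2 and 0.18 (adjusted p = 0.872) on separate parts of the UMIs.

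Of 14 T follicular helper genes tested, 8 were higher and 1 lower, with a median log2 fold change of 0.58. The list holds Cd200, Btla and Tnfsf8, given above as no independent support, and without these 3 genes 5 of 11 were higher and 1 lower (median log2 fold change 0.46). Sostdc1, a secreted antagonist of BMP and Wnt signals, was at 160, 403, 87.8 and 382 CPM against 28.0, 54.2, 28.6 and 82.7 CPM, with the smallest adjusted p of the list (6-fold, log2 2.59, SE 0.17, adjusted p = 3.16e-12) and held under all 16 alternatives in which it was tested. Cxcr5, the receptor that guides cells to B cell follicles, was at 40.8, 38.0, 15.3 and 45.5 CPM against 11.0, 3.33, 1.68 and 2.67 CPM (7.03-fold, log2 2.81, SE 0.46, adjusted p = 7.38e-05, thinned 2.51 with adjusted p = 0.0811, and 3.53 without the library labelled Havcr2fl/fl;E8icre/+ replicate 1). Izumo1r, the gene of folate receptor 4, was nearly level over the libraries, at 242, 251, 229 and 236 CPM against 143, 143, 120 and 152 CPM, and was called under all 16 alternatives (log2 0.86, SE 0.12, adjusted p = 7.33e-06). Maf, a factor that drives interleukin-21 in helper cells, went the other way. Its level was 433, 251, 248 and 382 CPM against 847, 454, 628 and 475 CPM, lower in each library (log2 -0.85, SE 0.12, adjusted p = 6.32e-06, thinned -0.53 with adjusted p = 0.156, and adjusted p = 0.0568 without the library block). Il21 itself (log2 0.46, adjusted p = 0.207) and Cd40lg, the B cell help ligand (log2 0.37, adjusted p = 0.438), were not called.

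The largest rise among the genes named by size belonged to Nsg2, an endosomal protein gene known from neurons, at 56.5, 89.1, 84.0 and 109 CPM against 11.0, 10.8, 1.68 and 24.0 CPM (7.84-fold, log2 2.97, SE 0.30, adjusted p = 3.59e-08). All 4 libraries lay above the 4 of the comparison group. Also among the 10 with the largest rise were Igf1r, the receptor of insulin-like growth factor 1 (log2 2.26, adjusted p = 7.22e-05), and Lmo4 (log2 1.93, adjusted p = 0.00376, a call lost by DESeq2, by stricter cell filters and on separate parts of the UMIs).

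**Figure D2:**
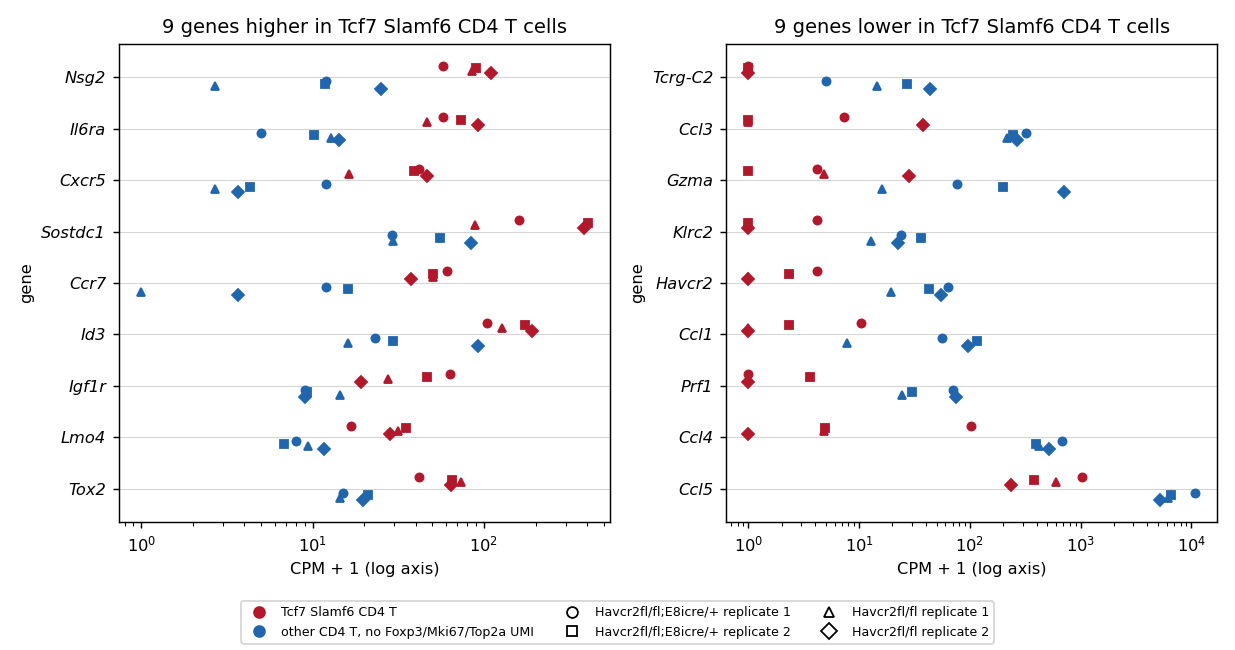
CPM + 1 (log axis) of 9 of the 10 genes with the largest rise (left) and 9 of the 10 with the largest fall (right) in Tcf7+Slamf6+ CD4+ T cells (red) against other CD4+ T cells without Foxp3, Mki67 or Top2a UMIs (blue), with 1 point per library. Every red point of Nsg2, Il6ra, Sostdc1 and Id3 lies to the right of the blue points, and every red point of Ccl5 to the left, between 236 and 1029 CPM.

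The 10 genes with the largest fall included chemokines (Ccl1, Ccl3, Ccl4 and Ccl5), cytolytic molecules (Gzma and Prf1) and the receptors Klrc2 and Havcr2. Of 20 Th1 effector genes tested, 0 were higher and 14 lower (edgeR, median log2 fold change -1.48), and of 15 cytotoxic genes 0 were higher and 13 lower (median -1.81). Ccl5, a chemokine stored by effector T cells, was at 1029, 375, 596 and 236 CPM against 10798, 6590, 6162 and 5153 CPM. The groups were far apart, with a 13-fold fall (log2 -3.70, SE 0.10, adjusted p = 1.53e-21). Ccl3, another effector chemokine, was at 6.27, 0, 0 and 36.4 CPM against 321, 244, 217 and 264 CPM (log2 -5.81, SE 0.35, adjusted p = 3.78e-13, -7.20 without Havcr2fl/fl replicate 2 and -4.86 without Havcr2fl/fl;E8icre/+ replicate 2). Ccl4 was at 100.4, 3.93, 3.82 and 0 CPM against 671, 392, 419 and 520 CPM. Nearly all of its UMIs in the Tcf7+Slamf6+ cells came from Havcr2fl/fl;E8icre/+ replicate 1, without which the log2 fold change went from -4.19 to -6.72, and without Havcr2fl/fl;E8icre/+ replicate 2 it was -3.54.

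Ifng, the gene of interferon-γ, was at 28.2, 27.5, 22.9 and 18.2 CPM against 127, 112, 79.1 and 120 CPM (log2 -2.01, SE 0.22, adjusted p = 8.98e-08, and thinned -1.23 with adjusted p = 0.092). Nkg7, a gene of cytolytic granules, was at 562, 424, 577 and 500.1 CPM against 1887, 1896, 2056 and 1791 CPM (3.60-fold lower, log2 -1.85, SE 0.09, adjusted p = 1.49e-15). Neither pair of groups overlapped. Prf1, which encodes the pore-forming perforin, had 2 UMIs in all Tcf7+Slamf6+ cells together, at 0, 2.62, 0 and 0 CPM against 69.0, 29.2, 23.6 and 74.7 CPM, a ratio of 33.5 with a counting interval of 9.11 to 279. Its fitted log2 fold change was -4.63 and ran from -7.54 to -4.0 with 1 library left out in turn. Gzma, the gene of granzyme A, was at 3.14, 0, 3.82 and 27.3 CPM against 76.0, 198, 15.2 and 705 CPM, so that Havcr2fl/fl replicate 2 of the first was above Havcr2fl/fl replicate 1 of the second (log2 -5.51, SE 0.36, adjusted p = 3.41e-12, -6.23 without Havcr2fl/fl replicate 2 and -4.28 without Havcr2fl/fl;E8icre/+ replicate 2). Tcrg-C2, a constant region of the γδ receptor, had 0 UMIs in the Tcf7+Slamf6+ cells against 4, 25.8, 13.5 and 42.7 CPM, at least 9.03-fold lower with a floor of 3 UMIs over the group.

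Among transcription factors of effector cells, Runx3 was at 53.3, 64.2, 126 and 100.03 CPM against 181, 220, 295 and 163 CPM (log2 -1.44, adjusted p = 9.31e-08). Prdm1, the gene of Blimp-1, was at 50.2, 3.93, 30.5 and 0 CPM against 93.1, 60.0, 65.7 and 32.0 CPM, lower in each library (log2 -1.72, adjusted p = 0.000593, -2.47 and -1.03 without Havcr2fl/fl;E8icre/+ replicate 1 or 2, and not called thinned or without the library block). Tbx21, the gene of T-bet, was at 31.4, 21.0, 30.5 and 18.2 CPM against 37.0, 42.5, 55.6 and 50.7 CPM and was not called (log2 -0.75, adjusted p = 0.108). Cxcr3, a homing receptor of Th1 cells, was not called either, at 185, 219, 191 and 90.9 CPM against 162, 147, 173 and 165 CPM (log2 0.30, adjusted p = 0.294). Cxcr6, by contrast, was at 157, 107, 153 and 100.03 CPM against 323, 455, 446 and 350 CPM (log2 -1.58, adjusted p = 3.27e-09).

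Havcr2 was nearly undetected in Tcf7+Slamf6+ CD4+ T cells, at 3.14, 1.31, 0 and 0 CPM, which is 2 UMIs in 294 cells. In the other CD4+ T cells without Foxp3, Mki67 or Top2a UMIs it was at 62.0, 41.7, 18.5 and 53.4 CPM. All 4 libraries were lower, with a ratio of 32.8 and a counting interval of 8.92 to 274 (fitted log2 -4.70, SE 0.54, adjusted p = 2.22e-07), and the call held under all 14 alternatives in which it was tested. At 2000 UMIs a cell, Havcr2 was detected in 0.187% of Tcf7+Slamf6+ cells and 7.06% of the comparison cells, beside 0.404% of cells without Cd3. The first share rests on 1 of 280 cells. Cells without Cd3 can include myeloid cells, some of which express TIM-3, so their share is not a level of free RNA alone.

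Of 13 inhibitory receptors and exhaustion genes tested, Havcr2 among them, 9 were lower and 1 higher (median log2 fold change -0.98). Pdcd1, the gene of PD-1, was still expressed at 166, 177, 172 and 109 CPM, against 281, 304, 295 and 235 CPM (log2 -0.74, SE 0.12, adjusted p = 4.13e-05, called under all 16 alternatives). Lag3 was at 87.8, 70.7, 91.6 and 27.3 CPM against 185, 144, 162 and 109 CPM (log2 -0.98, adjusted p = 7.55e-05, and thinned -0.88 with adjusted p = 0.101). Both receptors were lower in each library without overlap. Of the ectoenzymes that make adenosine, Entpd1 (CD39) was at 15.7, 2.62, 7.64 and 0 CPM against 58.0, 53.3, 30.3 and 32.0 CPM (log2 -2.82, adjusted p = 1.5e-05, -3.54 and -2.03 without Havcr2fl/fl;E8icre/+ replicate 1 or 2), whereas Nt5e (CD73), the gene of the list that was higher, was at 47.1, 77.3, 38.2 and 90.9 CPM against 18.0, 25.0, 15.2 and 26.7 CPM (log2 1.60, SE 0.25, adjusted p = 3.94e-05, and thinned 1.28 with adjusted p = 0.321). The CD39 gene fell and the CD73 gene rose in every library.

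Of 8 genes of the SLAM family and its adaptors tested besides Slamf6, 0 were higher and 4 lower (edgeR, median log2 fold change -0.29). Slamf1 was at 40.8, 30.1, 49.6 and 54.6 CPM against 128, 122, 136 and 123 CPM (log2 -1.64, SE 0.19, adjusted p = 4.01e-07, and thinned -1.08 with adjusted p = 0.092), and Slamf7 at 9.41, 11.8, 22.9 and 0 CPM against 35.0, 40.8, 60.6 and 29.4 CPM (log2 -1.71, adjusted p = 0.000809). Both were below the comparison group in every library. Sh2d2a, an adaptor, was also lower (log2 -0.83, adjusted p = 9.16e-05, and thinned -0.72 with adjusted p = 0.122), as was Cd48 (log2 -0.47, adjusted p = 0.0187), which was called under 10 of 16 alternatives and not, for one, without Havcr2fl/fl;E8icre/+ replicate 2 (-0.24, adjusted p = 0.546).

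The interleukin-2 and STAT5 pathway moved in both directions, with 4 genes higher and 5 lower of 17 tested. Il2rb, the receptor's β chain, was at 376, 207, 344 and 191 CPM against 607, 538, 576 and 419 CPM (log2 -0.92, adjusted p = 1.63e-06), and Il2ra, its α chain, at 34.5, 11.8, 11.5 and 18.2 CPM against 93.1, 42.5, 55.6 and 53.4 CPM (log2 -1.65, adjusted p = 9.52e-05). The feedback inhibitors Cish (log2 -1.26, adjusted p = 6.64e-06) and Socs2 (log2 -2.26, adjusted p = 7.94e-05) fell, while the related Socs1 (log2 0.63, adjusted p = 0.00278, called under 12 of 16 alternatives) rose. Of 17 Wnt and β-catenin pathway genes, 2 were higher (Lef1 and Axin2, a feedback inhibitor of the pathway, log2 1.03, adjusted p = 0.00575, called under 12 of 16 alternatives and not without Havcr2fl/fl;E8icre/+ replicate 2) and 1 lower (Ccnd2, log2 -0.47, adjusted p = 0.00267, called under 13 of 16). Of 22 interferon-stimulated genes 4 were higher and 1 lower, of 13 T cell receptor response genes 0 were higher and 2 lower, of 10 regulatory T cell genes 0 were higher and 6 lower, and of 13 cell cycle genes 0 were higher and 1 lower by edgeR. Neither of the 2 Th2 and Th17 genes tested was called. Over all genes tested, 3.63% were higher and 3.57% lower.

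Cells just inside and just outside the rule show how the other genes lay around it, and these values carry no test. Over the 4 libraries, Ccl5 averaged 388 CPM in the 260 cells with both genes and at least 2 UMIs of either, 2173 CPM in the 34 cells with exactly 1 UMI of both, 3905 CPM in the 154 cells with at least 2 UMIs of one gene and none of the other, 4910 CPM in the 191 cells with a single UMI of one gene, and 9556 CPM in the 391 cells with neither. Havcr2 averaged 1.23, 0, 23.1, 21.4 and 63.7 CPM in the same order, and Id3 averaged 165, 38.8, 100.5, 39.2 and 17.7 CPM. Some of these means leaned on 1 library. The Id3 mean of 38.8 CPM came from 0, 0, 54.1 and 101 CPM by library. That of 100.5 CPM came from 55.2, 73.4, 8.09 and 265 CPM, and that of 39.2 from 21.3, 8.17, 17.6 and 110 CPM. The Havcr2 mean of 23.1 CPM came from 55.2, 21.4, 0 and 15.6 CPM, and that of 21.4 from 49.7, 20.4, 4.41 and 11.0 CPM. In cells with exactly 1 UMI of both genes Id3 was below that of the other Tcf7+Slamf6+ cells in every library, whereas Ccl5 was higher in 3 libraries and lower in Havcr2fl/fl replicate 1 (541 against 605 CPM), its mean resting on 5063 and 2650 CPM in 8 and 9 cells of the libraries labelled Havcr2fl/fl;E8icre/+. Ccl5 in the 154 cells was at 3072, 2329, 8953 and 1264 CPM by library. In Havcr2fl/fl replicate 1 it was thus above that of cells with a single UMI (5102 CPM) and with neither gene (5731 CPM). Il7r averaged 847, 709, 751, 737 and 519 CPM in the order given for the means of Ccl5.

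**Figure D3:**
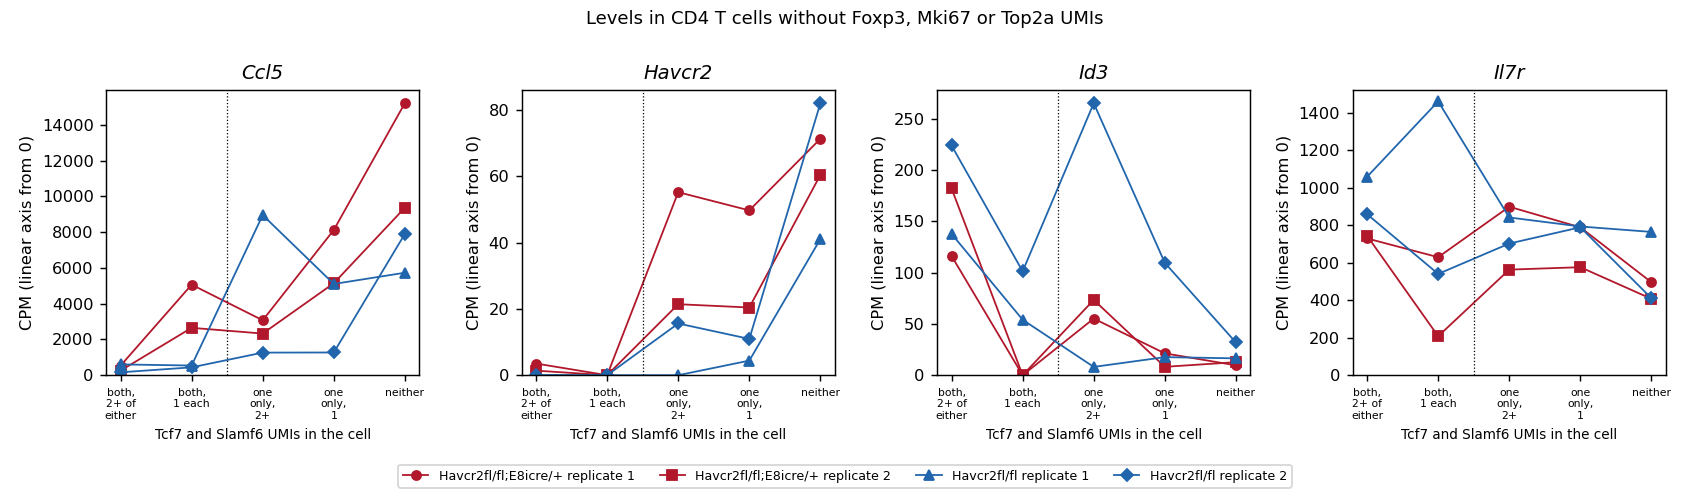
CPM (linear axes from 0) of Ccl5, Havcr2, Id3 and Il7r in CD4+ T cells without Foxp3, Mki67 or Top2a UMIs, by the number of Tcf7 and Slamf6 UMIs in the cell, with 1 line per library. The dotted line separates Tcf7+Slamf6+ cells (left) from the rest, and Ccl5 and Havcr2 were highest on average in cells with neither gene, at 9556 and 63.7 CPM.

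Slamf6 was detected more often in cells with Tcf7, without adjustment for the depth of the cell. It was detected in 63.4%, 79.4%, 77.4% and 63.5% of Tcf7+ CD4+ T cells and in 35.7%, 38.9%, 47.9% and 28.7% of Tcf7-negative ones, both without Foxp3, Mki67 or Top2a UMIs. Tcf7+Slamf6+ cells made up 21.1%, 37.5%, 30.8% and 22.5% of these CD4+ T cells, and cells with neither gene made up 42.9%, 32.2%, 31.4% and 46.1%.

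Receptor gene use could be described in few of the Tcf7+Slamf6+ cells. Among cells in which a single Trbv gene was detected (16, 44, 9 and 7 cells), 10, 17, 8 and 6 different Trbv genes were seen, and the most frequent took 18.8%, 20.5%, 22.2% and 28.6%, which is 3, 9, 2 and 2 cells. Among such cells of all other CD4+ T cells (88, 128, 52 and 42 cells), 19, 18, 14 and 13 genes were seen. There the most frequent took 14.8%, 15.6%, 15.4% and 31.0%. The number of genes seen is limited by the number of cells, and the classes were not compared by a test.

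The counterpart among CD8+ T cells, chosen by the same rule, held 79, 119, 34 and 39 cells. Of 5132 genes tested, 122 (2.38%) were higher and 131 (2.55%) lower in the CD4+ cells. These 253 calls numbered 128 without Havcr2fl/fl;E8icre/+ replicate 1, 134 without its replicate 2 and 87 by DESeq2. T follicular helper genes were higher in the CD4+ cells for 10 of 13 tested and lower for 0 (edgeR, median log2 fold change 1.06), and without Cd200, Btla and Tnfsf8 for 7 of 10 and 0 (median log2 fold change 1.24). Maf was at 433, 251, 248 and 382 CPM against 81.0, 35.1, 70.7 and 50.5 CPM in the CD8+ cells (5.48-fold, log2 2.46, SE 0.18, adjusted p = 7.29e-12). Il21, a cytokine that helps B cells and CD8+ T cells, was at 91.0, 85.1, 84.0 and 54.6 CPM against 10.4, 26.7, 8.84 and 7.21 CPM (log2 2.16, SE 0.29, adjusted p = 3.21e-06, and 3.0 without Havcr2fl/fl;E8icre/+ replicate 2). Cd40lg was at 18.8, 79.9, 107 and 27.3 CPM against 0, 8.48, 0 and 0 CPM (log2 3.77, SE 0.47, adjusted p = 6.8e-07). In all 3 genes the groups did not overlap. Izumo1r (log2 1.74, adjusted p = 1.06e-08), Icos (log2 0.97, adjusted p = 1.43e-05) and Tnfrsf4, the costimulatory receptor OX40 (log2 1.71, adjusted p = 4.17e-07, and 0.125 by DESeq2), were higher as well.

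The markers of the population were shared unequally by the CD4+ and CD8+ cells. Btla was at 41.8, 32.7, 22.1 and 43.3 CPM in the CD8+ cells, below every CD4+ library (2.91-fold, log2 1.54, SE 0.23, adjusted p = 1.35e-05). Cd200 was at 65.3, 113, 57.4 and 43.3 CPM (log2 0.99, SE 0.18, adjusted p = 0.000329), and Tnfsf8 at 334, 376, 141 and 173 CPM (log2 0.62, SE 0.14, adjusted p = 0.00414, a call lost by DESeq2, with at least 2 UMIs of both genes and, at 0.50 with adjusted p = 0.0575, without Havcr2fl/fl replicate 1). Il6ra was at 7.83, 8.48, 0 and 36.0 CPM in the CD8+ cells, again below every CD4+ library (log2 2.69, adjusted p = 8.83e-06). Id3 was at 146, 202, 97.2 and 252 CPM in the CD8+ cells and was not called (log2 -0.27, SE 0.16, adjusted p = 0.47), nor was Il7r (log2 0.37, adjusted p = 0.0549) or Tox (log2 -0.34, adjusted p = 0.203).

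Cytotoxic genes were lower in the CD4+ than in the CD8+ cells for 10 of 13 tested and higher for 0 (edgeR, median log2 fold change -1.81). Nkg7 was at 1731, 1604, 1816 and 2436 CPM in the CD8+ cells, several times the CD4+ values (log2 -1.89, SE 0.11, adjusted p = 1.32e-14). Klre1, a receptor of natural killer and CD8+ T cells, had 0 UMIs in the CD4+ cells against 33.9, 19.4, 48.6 and 43.3 CPM, at least 14.2-fold lower. Klrk1, the gene of NKG2D, was at 9.41, 5.24, 3.82 and 0 CPM against 112, 52.1, 177 and 93.7 CPM (log2 -4.02, SE 0.36, adjusted p = 8.82e-10). Perforin (Prf1) was at 49.6, 55.7, 92.8 and 108 CPM in the CD8+ cells, a ratio of 46.7 (12.6 to 391). Its fitted log2 fold change was -5.32 and ran from -7.21 to -4.98 with 1 library left out in turn. Eomes was at 118, 78.8, 83.9 and 93.7 CPM in the CD8+ cells, above every CD4+ library (log2 -2.30, SE 0.30, adjusted p = 1.44e-06, and -3.15 without Havcr2fl/fl;E8icre/+ replicate 2). For Havcr2 both populations held 2 UMIs in all, so no fold is given.

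**Figure D4:**
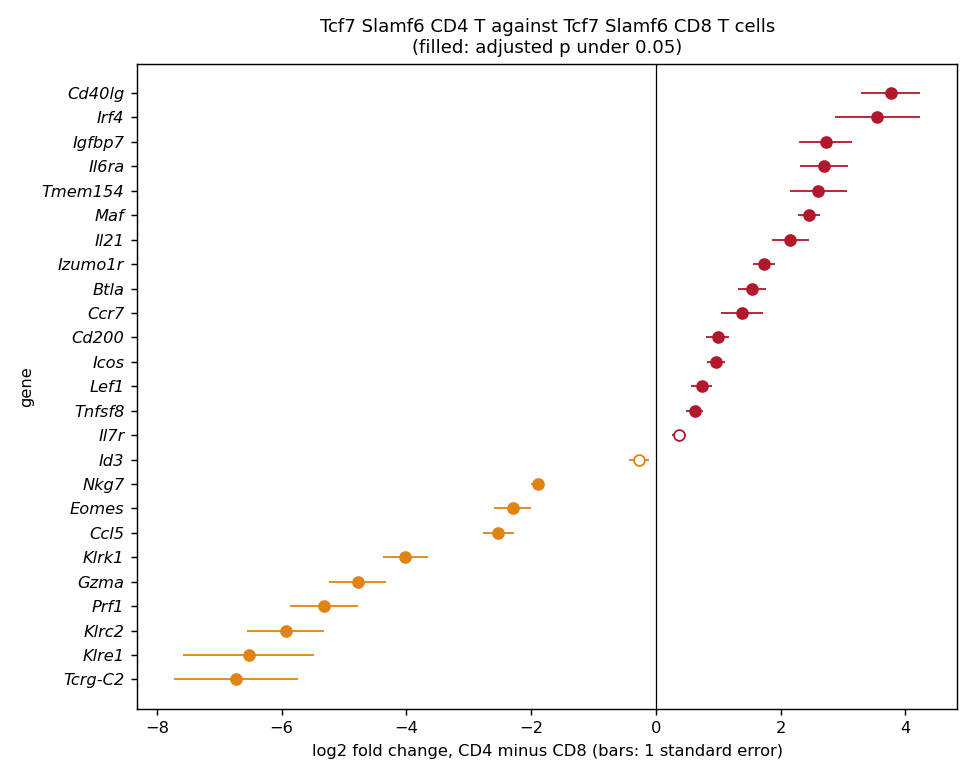
Log2 fold change of 25 genes in Tcf7+Slamf6+ CD4+ against Tcf7+Slamf6+ CD8+ T cells over 4 libraries, with bars of 1 standard error and filled points at an adjusted p under 0.05. Cd40lg (3.77) and Maf (2.46) stand on the CD4+ side and Nkg7 (-1.89) and Eomes (-2.30) on the CD8+ side, while Il7r and Id3 are open, and values for Klre1, Prf1, Klrc2 and Tcrg-C2 rest on 0 to 2 UMIs in the CD4+ cells and depend on the prior count.

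The study asked what loss of TIM-3 in CD8+ T cells does to the donor T cells, so the genotypes were compared within the Tcf7+Slamf6+ CD4+ population, keeping in mind the library labelled Havcr2fl/fl;E8icre/+ replicate 1. Tcf7+Slamf6+ cells made up 12.4% (95% Wilson interval 9.92 to 15.3) and 21.5% (18.4 to 24.8) of CD4+ T cells in the libraries labelled Havcr2fl/fl;E8icre/+ and 19.6% (15.1 to 25.0) and 12.9% (9.59 to 17.0) in the Havcr2fl/fl libraries. The groups overlapped, with means of 16.9% ± 6.43 and 16.2% ± 4.76 (SD, n = 2), and the difference of 0.689 percentage points gave p = 1 in a two-sided exact permutation test over libraries, which 2 against 2 libraries cannot take below 1 in 3. Leaving out 1 library moved the difference between -3.86 (without Havcr2fl/fl;E8icre/+ replicate 2) and 5.24 percentage points (without Havcr2fl/fl;E8icre/+ replicate 1). Intervals cover counting error only.

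Between genotypes, 4 of 4436 genes (0.0902%) were higher and 0 (0%) lower in the Tcf7+Slamf6+ CD4+ T cells of the Havcr2fl/fl;E8icre/+ libraries, against 234 at an unadjusted p under 0.05 and 3 calls by DESeq2. The 4 were the globin genes Hba-a1 (log2 5.17, adjusted p = 0.00233), Hba-a2 (log2 6.08, adjusted p = 0.00233), Hbb-bs (log2 5.01, adjusted p = 0.00971) and Hbb-bt (log2 5.10, adjusted p = 0.00971), genes of red cells. None of the 4 was called without Havcr2fl/fl replicate 2 (adjusted p from 0.186 for Hbb-bt to 0.421 for Hba-a2). With 1 library left out in turn, the log2 difference ran from 4.5 to 5.62 for Hba-a1, 5.26 to 6.75 for Hba-a2, 4.22 to 6.18 for Hbb-bs and 3.89 to 6.98 for Hbb-bt. No gene of the stem-like, memory, T follicular helper, effector or inhibitory lists was called. Cd200 (log2 0.19, adjusted p = 0.963), Tnfsf8 (log2 0.48, adjusted p = 0.916) and Btla (log2 0.51, adjusted p = 0.916) were not called. The libraries of the genotypes overlapped for Cd200 and did not for Tnfsf8 and Btla. With 2 against 2 libraries such a separation is frequent without any difference, and its share over all genes was not counted. In the other CD4+ T cells 0 of 9641 genes (0% higher, 0% lower) were called by edgeR, against 460 at an unadjusted p under 0.05 and 10 by DESeq2. The genotype difference itself differed between the Tcf7+Slamf6+ and the other CD4+ T cells for 6 of 8376 genes in the higher (0.0716%) and 4 in the lower direction (0.0478%), all of them globin, immunoglobulin or S100 genes.

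The globin signal sat in few cells. The 4 globin genes summed to 23692, 10294, 229 and 800 CPM in Tcf7+Slamf6+ cells, and 1 cell held 45.9% of these UMIs in the first library and 1 held 55.1% in the second. A globin UMI was detected in 57.7%, 61.5%, 70.8% and 75% of the cells, so detection was not higher in the libraries with the high sums. Without the 4, 2, 0 and 1 cells that had over 20 UMIs of globin and immunoglobulin genes, a limit chosen after seeing the data, the sums were 213, 184, 229 and 612 CPM. No gene was then called between genotypes (edgeR, 222 at an unadjusted p under 0.05).

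**Figure D5:**
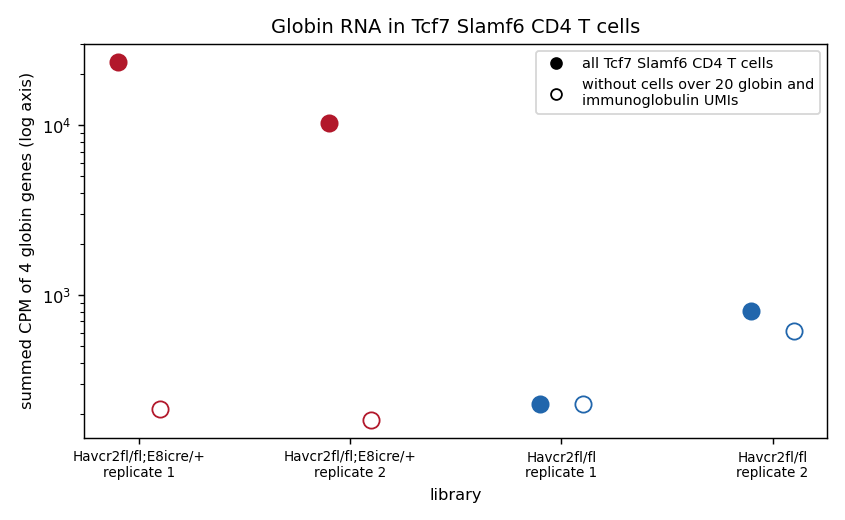
Summed CPM (log axis) of Hba-a1, Hba-a2, Hbb-bs and Hbb-bt in the Tcf7+Slamf6+ CD4+ T cells of each library, with all cells (filled) and without cells over 20 globin and immunoglobulin UMIs (open). The libraries labelled Havcr2fl/fl;E8icre/+ drop from 23692 and 10294 CPM to 213 and 184 CPM.

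Markers of other cell types were present at low level besides globin. The erythroid list summed to 24030, 10372, 252 and 1037 CPM in Tcf7+Slamf6+ cells, with Hbb-bs the most abundant and 9, 9, 8 and 9 of 10 genes detected. The B and plasma cell list summed to 238, 334, 378 and 1073 CPM with 3, 5, 4 and 4 of 10 genes detected, Ighm or Igkc the most abundant, and Ms4a1, Pax5 and Ebf1 at 0 in all 4 libraries. The myeloid and leukemia list summed to 179, 132, 244 and 145 CPM with 9, 9, 9 and 8 of 12 genes detected, and Csf1r and Cebpe were at 0 throughout. The natural killer list summed to 28.2, 27.5, 34.4 and 0 CPM with Ncr1 at 0, the γδ and invariant NKT list to 25.1, 14.4, 7.64 and 9.09 CPM with Tcrg-C2 and Zbtb16 at 0, the dendritic list to 135, 90.4, 64.9 and 72.7 CPM with Clec9a, Siglech and Itgax at 0, and the megakaryocyte list to 9.41, 2.62, 0 and 9.09 CPM. In the comparison with other CD4+ T cells without Foxp3, Mki67 or Top2a UMIs, S100a8 (log2 -6.35), Jchain (log2 -5.17) and Igkc (log2 -1.82) were called lower and Hbb-bt (log2 1.42) and Hba-a1 (log2 1.23) higher. The calls of these genes rested on single libraries or few cells. S100a8 was -0.21 (adjusted p = 0.93) without Havcr2fl/fl replicate 1, whose comparison cells held it at 10197 CPM against 19.0, 14.2 and 13.3 CPM in the other libraries. Without Havcr2fl/fl;E8icre/+ replicate 2, Jchain was 0.12 (adjusted p = 0.979) and Igkc -0.26 (adjusted p = 0.45). Without the library labelled Havcr2fl/fl;E8icre/+ replicate 1, Hbb-bt was 0.33 (adjusted p = 0.171) and Hba-a1 0.08 (adjusted p = 0.843), and Hbb-bt was -0.57 without the cells over 20 globin and immunoglobulin UMIs. Without those cells 262 genes were higher and 268 lower in this comparison. Other genes of these lists called lower were S100a9 (log2 -4.78), Fcer1g (log2 -2.60), Cd74 (log2 -0.69), Eomes (log2 -1.48) and Tcrg-C2 (log2 -6.53). They were called under 9 of 11, 6 of 10, 7 of 16, 14 of 15 and 11 of 11 alternatives, in that order. The part of RNA from other cell types in the remaining differences was not tested.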

How the data were processed

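Single-cell 3′ RNA and 1 antibody tag were measured in 4 libraries, 1 per mouse, 2 per genotype (2 mice a group per the series text). Per the labels the deposited matrices of UMI counts came from the 10x Genomics kit v3.1 and Cell Ranger 6.1.2 with build mm10. The raw counts were not normalized by the authors, and barcodes had been filtered by the cell caller. They held 15784 barcodes, 32285 genes and 38386626, 31449644, 17693991 and 55045903 gene UMIs. Low counts limit precision most in the 40 cells of the shallowest library. Gene UMIs were summed per library and class and tested with edgeR 4.0.16 (quasi-likelihood, TMM, filterByExpr, Benjamini-Hochberg, threshold 0.05) in R 4.3.3. Class comparisons had the library as a block and genotype comparisons were 2 against 2. CPM were computed from the class sums with Python 3.11.15. Genes used by the rule were not tested in the class comparisons. They stayed in the genotype fits, and in the fit of the difference between the populations, where they passed the filter on low counts. Scores for doublets came from Scrublet in scanpy 1.11.5, and tag-low cells lay 3 median deviations under the median. Thinning drew 2000 UMIs per cell with a fixed seed. The fits were tested on simulated counts. Ratios for genes with 1 to 3 UMIs have exact 95% counting intervals.

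Genes named in the text were, for each comparison, those of largest fold past the threshold with the same direction in all 4 libraries and a mean of at least 20 CPM (up to 10 per direction, or 6 against CD8+ cells), up to 4 called genes per list with at least 5 CPM, the population's markers, Havcr2 and the globin genes. The rule was written for all other CD4+ T cells and was applied likewise to those without Foxp3, Mki67 or Top2a UMIs. Il7r, S1pr1, Satb1, Izumo1r, Maf, Ifng, Nkg7, Cxcr6, Runx3, Prdm1, Pdcd1, Lag3, Tox, Il2rb, Socs1, Tbx21, Il21, Cd40lg and Cxcr3, and Id3, Il7r, Tox, Icos, Cxcr5, Tox2 and Bcl6 against CD8+ cells, were added after their values were seen. The members and gene lists were chosen with earlier results of these data known. Alternatives were DESeq2 1.42.0, its size factors, no filter on low counts, stricter cells (1000 genes, 5% mitochondrial UMIs), doublet and tag filters, thinning, at least 2 UMIs of both genes, each library left out, blocks, selection and measurement on separate random parts of the UMIs, and other comparison cells. Some of the genes these rules name are not reported here.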

Additional observations from a re-analysis of the deposited data

Results flagged for a closer look

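The genotype difference (Havcr2fl/fl;E8icre/+ minus Havcr2fl/fl, log2) differed between Tcf7+Slamf6+ CD4+ T cells and the other CD4+ T cells for 10 genes, by the interaction term of the edgeR fit. For 4 globin genes it was larger in the Tcf7+Slamf6+ cells, by 4.25 for Hbb-bt (adjusted p = 2.97e-05), 4.91 for Hba-a2 (adjusted p = 0.000934), 3.56 for Hbb-bs (adjusted p = 0.00163) and 3.87 for Hba-a1 (adjusted p = 0.00509). Without Havcr2fl/fl replicate 2 the difference for Hbb-bt was 2.27 (adjusted p = 0.249), and with another library left out it lay between 3.37 and 5.25. For the myeloid genes S100a9 and S100a8 it was larger by 6.67 (adjusted p = 1.48e-07) and 7.01 (adjusted p = 3.88e-05), against differences of -6.20 and -7.34 in the other CD4+ T cells. For immunoglobulin genes it was smaller, by -5.16 for Igkc (adjusted p = 4.81e-11), -7.16 for Ighg1 (adjusted p = 4.67e-06), -6.15 for Jchain (adjusted p = 0.000173) and -2.75 for Ighm (adjusted p = 0.0020). With 1 library left out in turn, the difference for Igkc lay between -6.35 (without Havcr2fl/fl;E8icre/+ replicate 2) and -4.41 (without its replicate 1).

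In the other CD4+ T cells S100a8 was at 15.8, 10.7, 4191 and 11.6 CPM and S100a9 at 15.8, 7.23, 1628 and 7.35 CPM, so Havcr2fl/fl replicate 1 carried nearly all of both. Without that library the difference was -0.65 for S100a8 (adjusted p = 0.979) and 7.12 for S100a9 (adjusted p = 0.913). In the other CD4+ T cells Ighg1 was at 1600, 2.20, 63.5 and 24.2 CPM, so the library labelled Havcr2fl/fl;E8icre/+ replicate 1 carried most of it, and without it the difference was 0.041. Without the cells over 20 globin and immunoglobulin UMIs, 3 genes differed in this way, S100a8 (7.17), S100a9 (6.77) and Hmgb2 (-0.88). The source of these RNAs was not tested.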

How the results depend on the processing

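Calls against the other CD4+ T cells without Foxp3, Mki67 or Top2a UMIs (488) numbered 236 by DESeq2, 319 with stricter cells, 109 after thinning, 137 without the library block, 232 on separate parts of the UMIs (201 of them shared with the 488), and 313 (without Havcr2fl/fl;E8icre/+ replicate 2) to 487 with 1 library left out. Against all other CD4+ T cells (922) they numbered 531 by DESeq2, 122 after thinning, 415 without the block, 475 on separate parts of the UMIs, and 592 (without Havcr2fl/fl;E8icre/+ replicate 2) to 825. Against CD8+ cells (253) they were 87 by DESeq2, 164 with stricter cells, 51 after thinning, 104 with 2 UMIs of both genes, and 128 (without Havcr2fl/fl;E8icre/+ replicate 1) or 134 (without replicate 2) to 247. Thinning tests fewer genes.

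Between genotypes in the Tcf7+Slamf6+ cells (4 calls) they were 24 without a filter on low counts, 0 after thinning, 0 without cells over 20 globin and immunoglobulin UMIs, and 0 (without Havcr2fl/fl replicate 2) to 22 (without Havcr2fl/fl;E8icre/+ replicate 2), with 9 without Havcr2fl/fl;E8icre/+ replicate 1. In the other CD4+ T cells (0 calls) they were 10 by DESeq2, 116 without the filter, 1 with doublets removed, 3 without those cells, and 8 (without Havcr2fl/fl;E8icre/+ replicate 1), 21 (without its replicate 2), 10 (without Havcr2fl/fl replicate 1) and 38 (without its replicate 2). For the difference between the populations (10) they were 2 by DESeq2, 17 without the filter, 0 after thinning, 3 without those cells, and 17 (without Havcr2fl/fl replicate 2), 20 and 23 (without Havcr2fl/fl;E8icre/+ replicate 1 or 2). Whether replicate numbers pair the libraries could not be decided. With each genotype centred on its mean, same-numbered libraries correlated at -0.0258 in Tcf7+Slamf6+ and 0.0249 in other CD4+ T cells. With 2 libraries a group, differently numbered libraries take the same values with opposite sign by construction. The replicate block gave 11 and 27 calls. The difference in share reversed to -3.86 and -2.68 percentage points without Havcr2fl/fl;E8icre/+ replicate 2 or Havcr2fl/fl replicate 2, and rose to 5.24 without Havcr2fl/fl;E8icre/+ replicate 1.

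Of the values of single genes, 1087 of 1251 against the first comparison group and 913 of 1009 against the second kept direction and call, and 589 of 714 against CD8+ cells. Log2 values that reversed against all other CD4+ T cells were Jchain 0.12 (without cells over 20 globin and immunoglobulin UMIs), Igkc 0.092 (thinned) and 0.064 (without those cells), and S100a8 0.11 and S100a9 0.65 (without Havcr2fl/fl replicate 1, and down to -6.07 and -4.78 without another library). Against those without Foxp3, Mki67 or Top2a UMIs they were Jchain 0.12 (without Havcr2fl/fl;E8icre/+ replicate 2, and down to -5.71), S100a9 0.30 (without Havcr2fl/fl replicate 1, and down to -5.44), Igkc 0.13, Hbb-bt -0.16, Hba-a1 -0.43 and Cxcr3 -0.013 (thinned), Hbb-bt -0.57 (without those cells), and Tox -0.0049 (no filter), -0.088 (stricter cells), -0.039 (without Havcr2fl/fl;E8icre/+ replicate 2, and up to 0.16) and -0.13 (against cells with neither gene). Between genotypes they were Hba-a1 -1.03 and Hbb-bs -1.07 (without those cells), Cd200 -0.16 and Btla -0.022 (2 UMIs of both genes), and Cd200 -0.026 (without Havcr2fl/fl replicate 2, and up to 0.68). For the difference they were Ighg1 0.24 (thinned) and 0.041 (without Havcr2fl/fl;E8icre/+ replicate 1, and down to -8.21), Hbb-bt -0.55 (without those cells) and S100a8 -0.65 (without Havcr2fl/fl replicate 1, and up to 7.49). Against CD8+ cells they were Hba-a1 -0.35 and Hbb-bs -0.048 (thinned), Hbb-bt -0.074 and Hbb-bs -0.11 (without those cells). The cause was not tested. Removing globin and immunoglobulin-rich cells and every alternative for the genotypes in the other CD4+ T cells were chosen after seeing the data.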
